A study of Mus musculus with 12 samples.

Results

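The 35 genes described here encode nucleolar proteins that make ribosomes, and they were picked by symbol as nucleolar rRNA processing and RNA polymerase I genes. All 35 were found among the 32227 genes of the count table and all 35 were among the 15083 genes tested. The rule that picks them uses no measured value, although it was set with earlier results of these data known. They lie on 17 chromosomes.

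Bulk RNA sequencing was performed on basophil-lineage cells sorted from wild-type C57BL/6J mice, for which the labels name no treatment, in 4 groups of 3 libraries. CD34+ basophil progenitors (BaPs), CD34- pre-basophils and mature basophils came from the bone marrow (BM), and a further group of mature basophils came from the spleen. All groups were sorted as CD200R3+ cKit- cells. BaPs and pre-basophils were CLEC12A-high and differed in surface CD34, pre-basophils being CD9-low, and mature basophils were CLEC12A-low and CD9-high. The labels name the pre-basophil group immature basophils. Cells of several animals were pooled for each library, so the replicate spread is a spread between pools, and ages are not given in the labels. The comparisons run from BaP to pre-basophil to BM mature basophil, and then contrast the 2 tissues. The study placed CLEC12A-high pre-basophils upstream of CLEC12A-low mature basophils. In terms of expression profile it found BaPs and pre-basophils similar and predicted that the pre-basophil population includes BaPs. The first step below therefore compares 2 sorted groups whose order was not tested here.

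Ribosome production starts in the nucleolus, where RNA polymerase I transcribes the precursor of the large rRNAs. Small nucleolar RNPs (snoRNPs) guide chemical changes on that precursor, 2′-O-methylation by the box C/D class and pseudouridylation by the box H/ACA class, while the small-subunit processome and a series of large-subunit particles cut, fold and export it together with ribosomal proteins. Cells that grow and divide run this pathway at a high rate, and it is one of the best known sets of MYC targets. Granulocytes reduce nucleolar size as they mature, and mature basophils do not divide.

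The 7 short stretches of the genome listed below are shown first because they hold the hexamer CACGTG, the E-box bound by MYC and its partner MAX, within the promoter windows of the 35 genes. RefSeq promoter windows on GRCm38.p6, each running from 250 bases before to 50 bases after a transcript start, were matched by symbol for 30 of the genes, which had 33 windows. Npm1, Fbl, Bop1, Rrs1 and Rrp12 had no entry. Each stretch has 30 bases and is written 5′ to 3′ on the strand of the gene, with the hexamer in capitals.
Mybbp1a, chr11:72441347-72441376, plus strand: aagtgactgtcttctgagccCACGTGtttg
Pes1, chr11:3963965-3963994, plus strand: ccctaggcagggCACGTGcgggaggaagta
Tsr1, chr11:74898092-74898121, plus strand: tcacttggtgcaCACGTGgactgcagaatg
Wdr43, chr17:71616220-71616249, plus strand: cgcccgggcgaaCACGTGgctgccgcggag
Ltv1, chr10:13193092-13193121, minus strand: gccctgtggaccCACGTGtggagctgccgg
Utp20, chr10:88826765-88826794, minus strand: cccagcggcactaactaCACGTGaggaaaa
Nop2, chr6:125131811-125131840, plus strand: gtgtccctggatCACGTGtgttccggtgcc

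The hexamer, which reads the same on both strands, was found in 7 of the 33 windows (21.2%) and in 7.2% of all 32851 windows of the table. In 6 of the 7 genes it began within the 50 bases after the start, a position that 18.2% of the members' windows and 1.08% of all windows shared. In Nop2 it began 60 bases before the start, and over the 250 bases before the start the shares were 3.0% of the members' windows and 6.21% of all windows. The 2 further words TCTCGCG and GGCGGG were searched on both strands, and neither overlaps the E-box. TCTCGCG was present in 15.2% of the members' windows and 2.6% of all windows, and the GC-box core GGCGGG in 60.6% and 35.3%. These are matches of letters and were not tested as binding sites. A second feature shared by some members was the presence of small nucleolar RNA genes inside them. Ncl, Nop56, Nop58, Dkc1, Wdr43, Tsr1 and Gnl3 together contained 21 annotated snoRNA or scaRNA genes, so that 20.0% of the 35 genes were hosts, compared with 1.48% of the 17621 protein-coding genes of the table.

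Library totals ranged from 3596108 to 8151030 counts, and the 35 genes took 0.0748% to 0.248% of them. Values are CPM, that is counts scaled to a common library total after TMM (trimmed mean of M values) scaling, and fold changes, standard errors (SE) and Benjamini-Hochberg adjusted p-values over all tested genes are from edgeR's quasi-likelihood test, with a gene called at an adjusted p under 0.05. One library stood apart from its group. BaP replicate 3 held the summed basophil markers at 25500 CPM, against 68700 and 63300 in BaP replicates 1 and 2, and exceeded them in the summed markers of erythroid cells (2410 against 8.84 and 11.3), T and NK cells (991 against 444 and 340), monocytes (305 against 35.8 and 43.4), B cells (186 against 34.6 and 37.0) and stem and progenitor cells (162 against 49.9 and 51.2). All 9 basophil markers were detected, and the lowest sum in any library was 7250 CPM, in the spleen. All 9 neutrophil markers, which include granule genes shared with progenitors, were detected as well and summed to 2010 to 2450 CPM across BaP libraries and 1010 to 2320 across pre-basophil libraries, against 90.6 to 128 for mature cells of the BM and 60.5 to 68.8 for those of the spleen. B cell markers reached 182 to 325 CPM in the spleen libraries, against 34.7 to 51.1 in BM mature libraries. The part of these other cell types in the results was not tested, and the counts and calls that involve BaPs are given below with and without BaP replicate 3. In bulk libraries such as these, fewer cells of a type and less RNA per cell cannot be told apart.

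Ribosome biogenesis transcripts were highest in the BaPs and lower in the other groups. The summed level of the 35 genes was 1711, 1526 and 1923 CPM across BaP libraries, 1104, 1042 and 1098 across pre-basophil libraries, 926, 886 and 886 in mature cells of the BM and 995, 997 and 1002 in those of the spleen. No BaP library overlapped any other group, and the order of the remaining groups was pre-basophil, spleen, BM, again without overlap. Npm1 and Ncl alone made up 37.9% of the sum in BaPs and 45.6% in BM mature basophils, yet without them the sums kept that order, at 1068 ± 103 (SD, n = 3), 672 ± 30.9, 611 ± 16.3 and 489 ± 12.6 CPM for BaP, pre-basophil, spleen and BM. By group mean, 31 of the 35 genes were highest in BaPs, while the lowest mean was that of BM mature basophils for 24 genes and that of the spleen for 8. Rrp9 was highest in pre-basophils, and Polr1e, Rrp1 and Noc2l in the spleen, although for Rrp9, Rrp1 and Noc2l the top group overlapped BaPs. By mean, 13 genes followed the full order BaP, pre-basophil, spleen, BM and 7 the order BaP, pre-basophil, BM, spleen.

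**Figure D1:**
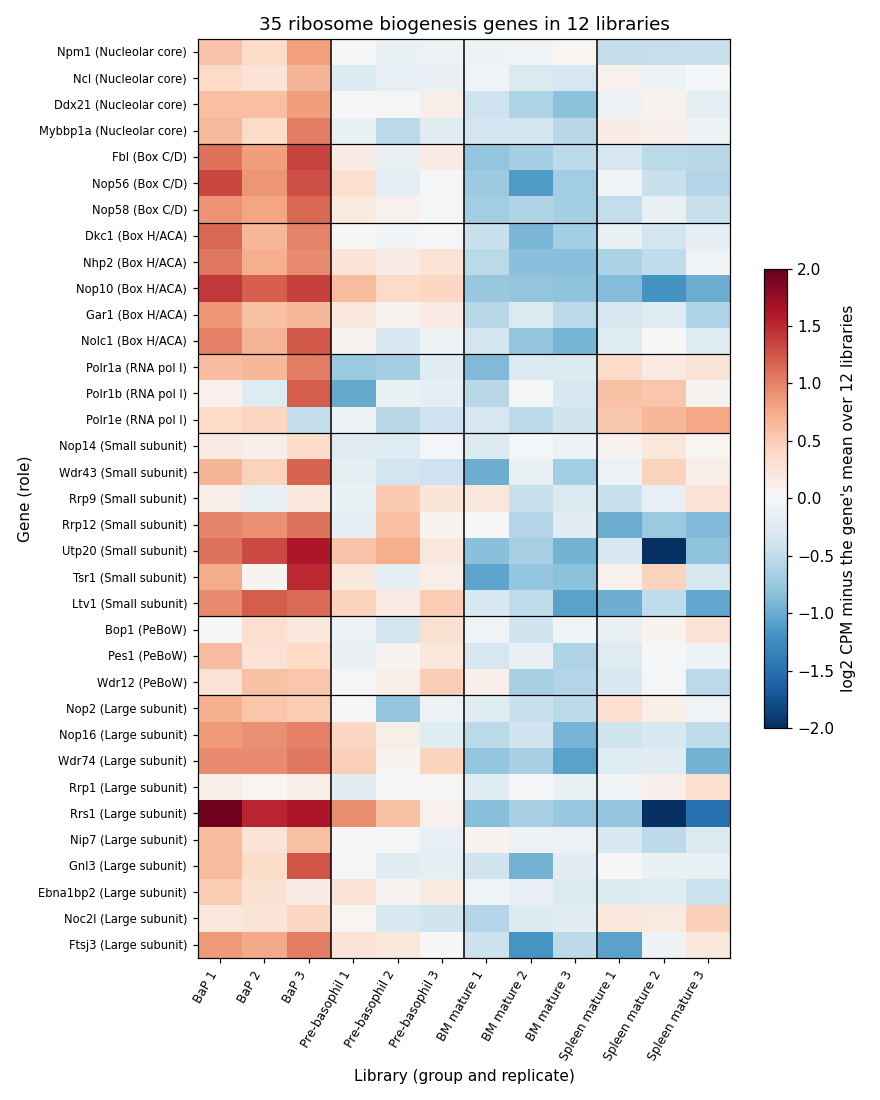
Expression of the 35 genes (rows, with role) in the 12 libraries (columns), as log2 CPM minus the gene's mean over the 12 libraries, red above and blue below the mean. The 3 BaP columns are red for most genes, and Rrp9, Rrp1 and Bop1 are close to white throughout.

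A difference among the 4 groups was called for 30 of the 35 genes (85.7%), where 57.8% of all tested genes were called. Polr1b, Nop14, Rrp9, Bop1 and Rrp1 were not called. From BaPs to pre-basophils, 18 of 35 genes were higher in BaPs (51.4%) and none was called lower, against a background of 2.79% of tested genes called higher in BaPs. None was lower at an unadjusted p under 0.05, nor by DESeq2 or limma-voom. The median log2 fold change was 0.73 for the 35 genes and 0.02 for all tested genes, and 34 of the 35 values were positive. In 28 of the 35 genes every BaP library exceeded every pre-basophil library, as in 12.1% of tested genes. Without BaP replicate 3, 19 genes were called higher with a median of 0.66, and 5.97% of the 14723 genes then tested were called higher. All 18 genes remained called and Polr1e was added, with log2 values of the 18 from 0.54 (Ncl) to 1.21 (Rrs1), and the largest fall among them was 0.31, in Gnl3. The count was 14 and 20 without BaP replicates 1 and 2, and 16, 10 and 11 without pre-basophil replicates 1, 2 and 3.

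From pre-basophils to BM mature basophils, 14 of the 35 genes were called higher in pre-basophils (40.0%) and none lower, where 16.3% of all tested genes were called higher. Again none was lower at an unadjusted p under 0.05 or by DESeq2 or limma-voom. The median log2 fold change was 0.46, against 0.00 for all tested genes. In all, 11 genes fell at both steps, namely Ddx21, Fbl, Nop56, Nop58, Dkc1, Nhp2, Nop10, Gar1, Nolc1, Nop16 and Rrs1. Npm1, Ncl, Mybbp1a, Polr1a, Wdr43, Nop2 and Gnl3 were called at the first step and not at the second, and Utp20, Ltv1 and Wdr74 at the second and not at the first. The difference between the 2 steps was not tested, and 14 genes were called at neither. Against spleen mature basophils, 26 of the 35 genes were higher in BaPs (74.3%) and none was called lower, with a background of 29.8% and a median of 0.88. This comparison shares no library with the second step but uses the same BaP libraries as the first. In that comparison 1 gene, Polr1e, was lower in BaPs at an unadjusted p under 0.05 (-0.53 ± 0.22, adjusted p = 0.0573), and it was called in 6 of 23 alternatives, limma-voom and the replicate block among them, but not by DESeq2. Its value was -0.24 without BaP replicate 3 (adjusted p = 0.240). The count of genes higher in BaPs was 24 of the same 26 without that library, against a background of 32.0%, when Tsr1 (log2 fold change 0.36, adjusted p = 0.268) and Wdr43 (0.41, adjusted p = 0.104) were not called.

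**Figure D2:**
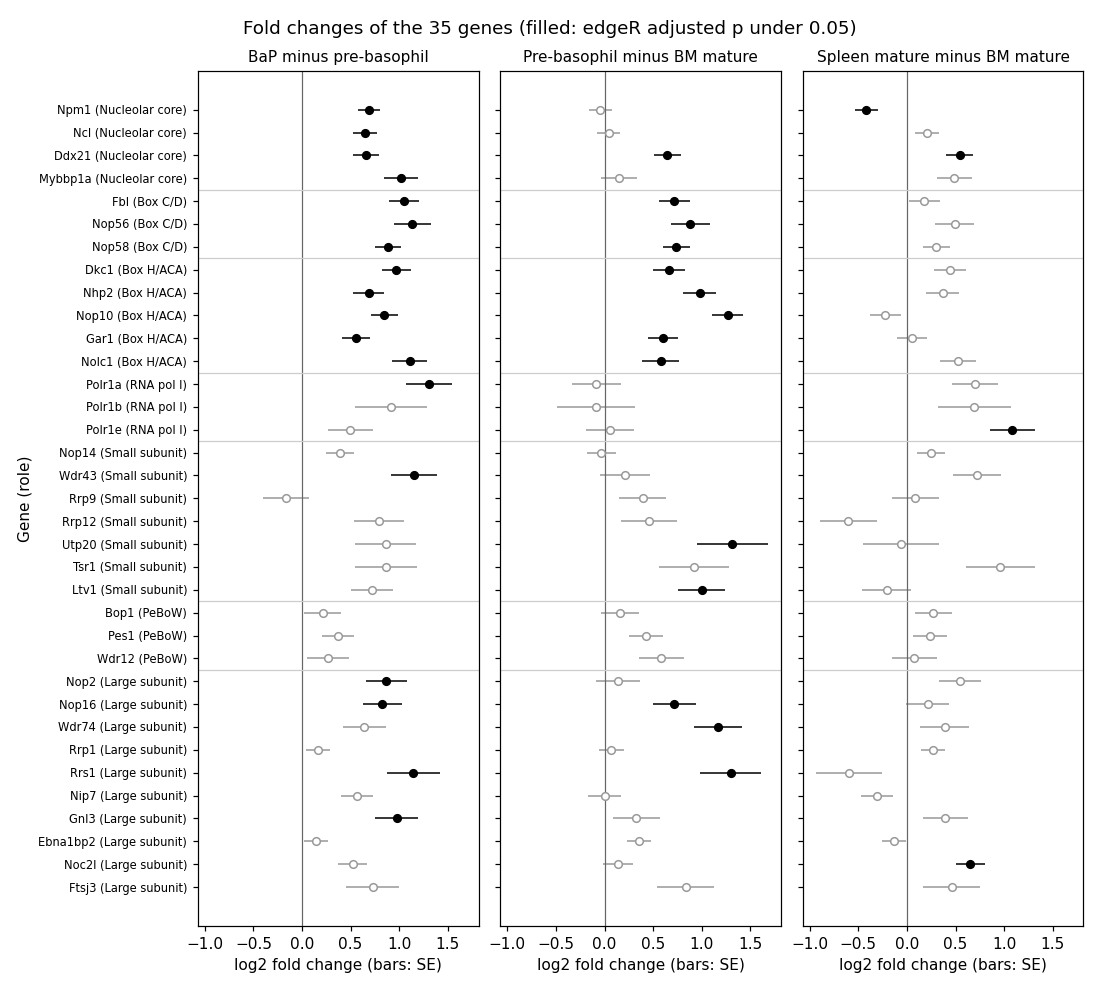
Log2 fold changes (x axis, bars show SE) of the 35 genes (y axis, with role) for BaP minus pre-basophil, pre-basophil minus BM mature and spleen mature minus BM mature, with n = 3 libraries per group. Filled points passed an adjusted p of 0.05, which 18, 14 and 4 genes did in the 3 panels, and the box C/D and H/ACA genes are filled in both of the first 2.

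Npm1 and Ncl of the nucleolar core had the highest mean CPM of the 35 genes, at 228 and 237 over the 12 libraries. The other core genes, Ddx21 (43.5) and Mybbp1a (23.65), lay below Rrp1 (76.8), a large-subunit gene. Npm1 encodes nucleophosmin, a histone and ribosome chaperone that forms the granular component of the nucleolus. Its level was 324, 287 and 388 CPM in BaPs, then 216, 199 and 205 in pre-basophils, 205, 209 and 225 in mature basophils of the BM and 158, 159 and 161 in those of the spleen. The BaP libraries lay above all others, pre-basophils and BM mature overlapped, and the spleen libraries were below all others. Npm1 was 1.61-fold higher in BaPs than in pre-basophils (log2 0.69 ± 0.12 SE, adjusted p = 0.00361), differed by -0.04 ± 0.12 between pre-basophils and BM mature (adjusted p = 0.822) and was lower in spleen than in BM mature (-0.42 ± 0.12, adjusted p = 0.0421). The last call held in 11 of 23 alternative analyses. Scaled to merged exon length, Npm1 was the highest of the 35 genes in every group, at 125 ± 19.2 CPM per kilobase in BaPs and 59.8 ± 0.632 in spleen. Of the 60-base windows of its transcripts, 21.9% also occurred in other annotated genes, and the sources used here do not say how reads that match several genes were counted, so its level is uncertain.

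Ncl encodes nucleolin, an RNA-binding protein of the pre-rRNA. Its CPM was 305, 280 and 371 across BaP libraries, 192, 206 and 210 across pre-basophil libraries, 219, 189 and 184 across BM mature libraries and 245, 215 and 224 in the spleen. BaPs were above all other libraries, and the 3 remaining groups overlapped in part. The BaP excess over pre-basophils was 1.57-fold (log2 0.65 ± 0.12, adjusted p = 0.00730), and the next step was 0.04 ± 0.12 (adjusted p = 0.841). Ddx21, a DEAD-box helicase that couples RNA polymerase I transcription to rRNA processing, was called at each step. It stood at 62.3, 62.2 and 73.9 CPM in the BaP libraries, 40.8, 40.2 and 44.6 in those of pre-basophils, 30.9, 26.8 and 23.2 in BM mature libraries and 37.9, 43.4 and 35.9 in spleen libraries. The 3 BM groups did not overlap, and the spleen libraries lay above the BM mature ones. Log2 fold changes of Ddx21 were 0.66 ± 0.13 from BaP to pre-basophil (adjusted p = 0.0104), 0.65 ± 0.14 at the next step (adjusted p = 0.00372) and 0.54 ± 0.14 for spleen against BM mature (adjusted p = 0.0323), the last called in 16 of 23 alternatives. Mybbp1a, a MYB-binding nucleolar regulator of rRNA synthesis and one of the genes with a CACGTG after the start, fell from 36.6 ± 8.24 CPM in BaPs to 18.3 ± 2.57 in pre-basophils (log2 1.01 ± 0.17, adjusted p = 0.00427).

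The 8 genes of snoRNP proteins were all called higher in BaPs than in pre-basophils, with and without BaP replicate 3, and all higher in pre-basophils than in BM mature basophils. Over all tested genes, 2.79% were called higher at the first step, or 5.97% without that library, and 16.3% at the second. Fbl encodes fibrillarin, the methyltransferase of the box C/D snoRNP. Its CPM was 70.2, 58.7 and 83.9 in BaPs, then 36.6, 29.7 and 36.8 in pre-basophils, 19.1, 20.5 and 22.8 in mature basophils of the BM and 26.1, 22.6 and 22.4 in those of the spleen. The 3 BM stages were separated in every library, and the 2 mature groups overlapped. Fbl fell 2.07-fold at the first step (log2 1.05 ± 0.15, adjusted p = 0.00131) and 1.64-fold at the second (0.72 ± 0.16, adjusted p = 0.00425). Other genes share 18.1% of its 60-base windows.

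Nop56 and Nop58 encode the paired scaffold proteins of the same particle and each hosts small nucleolar RNA genes, 5 in Nop56 and 4 in Nop58. Nop56 was at 73.6, 53.3 and 70.7 CPM across BaP libraries, 36.6, 25.3 and 28.5 across pre-basophil libraries, 17.5, 13.3 and 18.0 across BM mature libraries and 28.0, 21.3 and 19.4 in the spleen. Nop58 was at 69.8, 64.6 and 82.2 CPM in the BaP libraries, 42.5, 39.7 and 36.1 in those of pre-basophils, 22.9, 24.5 and 23.2 in BM mature libraries and 26.6, 33.5 and 27.2 in spleen libraries. Both were ordered by stage in the bone marrow without overlap, and both were above the BM mature libraries in all spleen libraries. The first step was 1.13 ± 0.19 for Nop56 (adjusted p = 0.00336) and 0.88 ± 0.13 for Nop58 (adjusted p = 0.00182) on the log2 scale. At the second step the values were 0.88 ± 0.20 (adjusted p = 0.00522) and 0.74 ± 0.14 (adjusted p = 0.00158). Their spleen excess over BM mature was not called (0.49 ± 0.20, adjusted p = 0.151, and 0.30 ± 0.14, adjusted p = 0.199).

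Among the H/ACA proteins, Nop10 had the steepest course. It encodes the smallest protein of the H/ACA core and its CPM was 40.1, 34.4 and 39.1 in BaPs, then 23.5, 19.7 and 20.2 in pre-basophils, 8.91, 8.76 and 8.61 in mature basophils of the BM and 8.32, 6.60 and 7.57 in those of the spleen. No libraries of different groups overlapped. Nop10 fell by 0.85 ± 0.14 (adjusted p = 0.00343) and then by 1.26 ± 0.16 on the log2 scale (adjusted p = 6.5e-05), and BaPs exceeded spleen mature basophils 5.04-fold (2.33 ± 0.15, adjusted p = 5.65e-08). Nhp2, which binds the H/ACA RNA next to Nop10, was at 50.2, 40.1 and 46.7 CPM across BaP libraries, 28.8, 26.8 and 29.6 across pre-basophil libraries, 16.5, 13.5 and 13.5 across BM mature libraries and 15.5, 17.0 and 23.1 in the spleen. The 3 BM stages did not overlap, and the mature groups did. Its steps were 0.68 ± 0.16 (adjusted p = 0.0213) and 0.98 ± 0.17 (adjusted p = 0.00090).

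Dkc1 encodes dyskerin, the pseudouridine synthase, which also holds telomerase RNA. Its level was 49.2, 35.4 and 44.3 CPM in the BaP libraries, 22.6, 21.4 and 21.8 in those of pre-basophils, 16.2, 11.8 and 13.9 in BM mature libraries and 20.0, 17.2 and 19.4 in spleen libraries. Nolc1, a chaperone that carries both classes of snoRNP, was at 48.5, 38.7 and 56.5 CPM in BaPs, then 25.2, 19.5 and 22.6 in pre-basophils, 18.8, 14.0 and 12.7 in mature basophils of the BM and 20.3, 24.3 and 20.2 in those of the spleen. For both genes the bone marrow stages were ordered without overlap and the spleen libraries were above BM mature. Dkc1 fell by 0.97 ± 0.15 (adjusted p = 0.00239) and by 0.66 ± 0.17 (adjusted p = 0.00899), and Nolc1 by 1.11 ± 0.18 (adjusted p = 0.00274) and by 0.58 ± 0.19 (adjusted p = 0.0379). The second call for Nolc1 held in 16 of 23 alternatives and was lost without BM mature replicate 3 (adjusted p = 0.155). Gar1, the last H/ACA core protein, had group means of 33.8 ± 3.31, 23.0 ± 1.20, 15.1 ± 1.69 and 15.7 ± 2.03 CPM in BaP, pre-basophil, BM and spleen, and its first step, of 0.56 ± 0.14 (adjusted p = 0.0342), was the smallest of the 18 called at that step and held in 16 of 23 alternatives.

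**Figure D3:**
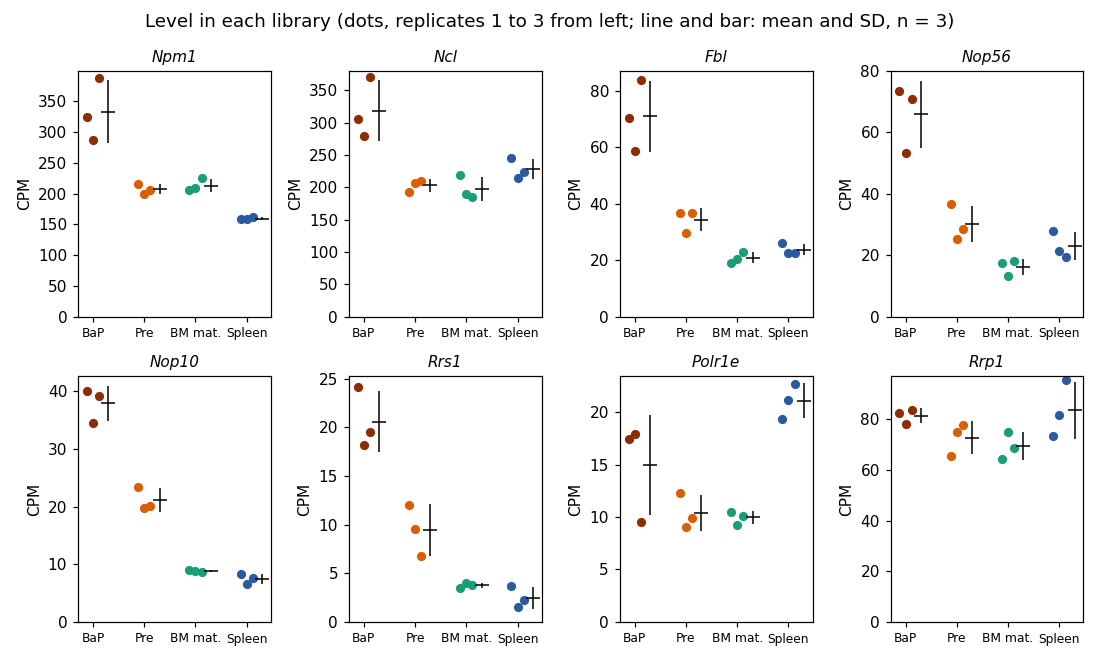
CPM (y axis, from 0) of 8 of the genes in each of the 12 libraries (dots, by group on the x axis), with the group mean and SD (n = 3). Within the bone marrow Npm1 and Ncl drop once, between BaPs and pre-basophils, whereas Fbl, Nop56, Nop10 and Rrs1 drop again before BM maturity. In spleen Npm1 is lowest and Polr1e highest, and Rrp1 differs little between groups.

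The 3 RNA polymerase I genes had 1 call at the first step, or 2 without BaP replicate 3, and no call between pre-basophils and BM mature basophils in edgeR, DESeq2 or limma-voom and none at an unadjusted p under 0.05. The background at the first step was 2.79% of tested genes called higher, or 5.97% without that library, and at the second 16.3%. Polr1a encodes the largest subunit. It fell from 12.1 ± 1.98 CPM in BaPs to 4.83 ± 0.946 in pre-basophils, the largest change of the 35 genes at the first step (log2 1.31 ± 0.24, adjusted p = 0.00557). At 5.13 ± 1.13 CPM in BM mature and 8.47 ± 0.607 in spleen, it was not called in either later comparison (adjusted p = 0.853 and 0.0886). Polr1b, the second largest subunit, was at 5.97, 4.71 and 13.1 CPM across BaP libraries, 2.80, 5.11 and 4.96 across pre-basophil libraries, 3.82, 5.51 and 4.49 across BM mature libraries and 8.48, 8.25 and 5.84 in the spleen. Its BaP mean rested on replicate 3, and the log2 difference from pre-basophils went from 0.92 ± 0.37 (adjusted p = 0.153) to 0.29 without that library (adjusted p = 0.623).

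Polr1e encodes a subunit of the dimer that helps the enzyme start and elongate. Its CPM was 17.4, 17.9 and 9.49 in the BaP libraries, 12.3, 9.01 and 9.92 in those of pre-basophils, 10.5, 9.26 and 10.1 in BM mature libraries and 19.4, 21.1 and 22.7 in spleen libraries. All spleen libraries were above every library of the other groups, and BaP replicate 3 sat with the pre-basophils, well below the other 2 BaP libraries. Polr1e was 2.12-fold higher in spleen than in BM mature basophils (log2 1.08 ± 0.23, adjusted p = 0.0159), a call that held in 19 of 23 alternatives and was lost without spleen replicate 3 (adjusted p = 0.0691). The BaP excess over pre-basophils was 0.50 ± 0.23 (adjusted p = 0.223) with all libraries and 0.78 (adjusted p = 0.0124) without BaP replicate 3. Summed over the 3 genes, RNA polymerase I transcripts had group means of 34.9 ± 1.72, 19.5 ± 1.16, 19.7 ± 1.35 and 37.1 ± 0.203 CPM in BaP, pre-basophil, BM and spleen. The spleen libraries were slightly above the highest BaP library, and both of these groups were clear of the other 2.

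Of the 7 genes of small-subunit factors, 1 was called at the first step, 2 at the second and 5 between BaPs and spleen mature basophils (median log2 0.82). Without BaP replicate 3 the last count was 3, with a median of 0.41, while the first-step count stayed at 1. The shares of all tested genes called higher were 2.79%, 16.3% and 29.8% in these 3 comparisons. Without that library they were 5.97% at the first step and 32.0% between BaPs and spleen. Wdr43, a component of the t-UTP complex that precedes the processome on the pre-rRNA, fell 2.23-fold at the first step, from 25.1 ± 6.58 to 11.4 ± 1.01 CPM (log2 1.16 ± 0.24, adjusted p = 0.0119). Utp20, a very large scaffold protein of the processome, was at 8.36, 9.90 and 12.2 CPM in BaPs, then 5.87, 6.57 and 4.64 in pre-basophils, 2.23, 2.50 and 2.06 in mature basophils of the BM and 3.20, 0.990 and 2.26 in those of the spleen. BaP, pre-basophil and mature libraries did not overlap. The second step was the largest of the 35 genes there (log2 1.32 ± 0.37, adjusted p = 0.0170), and the first was not called (0.86 ± 0.31, adjusted p = 0.111). Utp20 had the lowest level per kilobase of the 35 genes, 0.497 CPM per kilobase over all libraries.

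Ltv1, an export factor of the small subunit, was at 17.7 ± 1.71, 10.7 ± 1.28, 5.46 ± 1.40 and 4.64 ± 0.987 CPM in BaP, pre-basophil, BM and spleen, and its second step was called (log2 1.002 ± 0.24, adjusted p = 0.00727) while its first was not (0.72 ± 0.22, adjusted p = 0.0610). Rrp12, an export factor as well, and Tsr1, a GTPase-like assembly factor, were called only between BaPs and spleen among these comparisons, at log2 1.86 ± 0.27 (adjusted p = 5.89e-05) and 0.82 ± 0.31 (adjusted p = 0.0369). Tsr1 overlaps Srr on the opposite strand over 32.3% of its exon bases, and the sources used here do not say whether counting used the strand. Srr had 307 counts over the 12 libraries and Tsr1 had 603. Nop14, a processome protein, gave 22.0, 21.2 and 25.5 CPM across BaP libraries, 16.5, 16.6 and 19.4 across pre-basophil libraries, 16.2, 19.3 and 18.2 across BM mature libraries and 20.6, 23.1 and 20.2 in the spleen. Its BaP libraries were all above the pre-basophil ones by a margin that was not called (0.39 ± 0.14, adjusted p = 0.118). Rrp9, the U3 snoRNP protein, was the only member with a negative value at the first step (-0.16 ± 0.24, adjusted p = 0.751).

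The PeBoW complex, a trimer of Pes1, Bop1 and Wdr12 needed for maturation of the large-subunit rRNAs, had no member called at either step in the main edgeR fit, DESeq2 or limma-voom, with 1 and 2 members at an unadjusted p under 0.05. The background was 2.79% and 16.3% of tested genes called higher. At the second step Wdr12 was called in 4 of 23 alternatives, among them without BaP replicate 3 (0.60, adjusted p = 0.0434), and Pes1 in 1. Bop1 was at 21.0, 26.6 and 24.6 CPM in the BaP libraries, 19.6, 16.3 and 26.1 in those of pre-basophils, 20.1, 16.0 and 19.8 in BM mature libraries and 19.0, 22.3 and 25.9 in spleen libraries. Its BaP libraries overlapped those of pre-basophils and spleen and lay above those of BM mature basophils. Wdr12 was at 17.4, 21.5 and 21.0 CPM in BaPs, then 14.0, 15.6 and 20.0 in pre-basophils, 15.3, 9.01 and 9.55 in mature basophils of the BM and 11.5, 13.9 and 9.83 in those of the spleen. For Wdr12 the BaP libraries cleared both mature groups and overlapped pre-basophils. First-step values were 0.21 ± 0.19 for Bop1 (adjusted p = 0.560), 0.27 ± 0.22 for Wdr12 (adjusted p = 0.518) and 0.37 ± 0.16 for Pes1 (adjusted p = 0.193). Between BaPs and spleen mature basophils, where 29.8% of tested genes were called higher in BaPs, Wdr12 (0.77 ± 0.22, adjusted p = 0.00835) and Pes1 (0.56 ± 0.16, adjusted p = 0.0100) were called, whereas Bop1 was not (0.10 ± 0.18, adjusted p = 0.652). Other genes share 16.2% of the 60-base windows of Pes1.

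The 10 large-subunit factors ranged from the steepest to the flattest of the 35 genes. Rrs1, which helps to bring the 5S RNP into the large subunit, was at 24.1, 18.2 and 19.5 CPM across BaP libraries, 12.02, 9.49 and 6.72 across pre-basophil libraries, 3.50, 4.01 and 3.74 across BM mature libraries and 3.68, 1.49 and 2.26 in the spleen. The bone marrow stages did not overlap, and the mature groups did. Rrs1 fell by 1.15 ± 0.27 (adjusted p = 0.0228) and by 1.30 ± 0.31 (adjusted p = 0.00700), and BaPs were 8.24-fold above spleen mature basophils, the largest fold of the 35 genes in that comparison (log2 3.04 ± 0.30, adjusted p = 1.96e-06). Other genes share 4.07% of its 60-base windows. Its first-step call was lost without pre-basophil replicate 3 (adjusted p = 0.118).

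Rrp1, a factor of the same pathway, stood at the other end. Its CPM was 82.7, 78.0 and 83.6 in the BaP libraries, 65.4, 75.0 and 77.9 in those of pre-basophils, 64.3, 75.1 and 68.7 in BM mature libraries and 73.5, 81.5 and 95.5 in spleen libraries. The BaP libraries lay just above the pre-basophil ones, the other neighbouring groups overlapped, and the values were 0.16 ± 0.12 (adjusted p = 0.488) and 0.07 ± 0.13 (adjusted p = 0.724) at the 2 steps and -0.04 ± 0.12 between BaPs and spleen (adjusted p = 0.820). Nip7, a small factor of 60S assembly, was at 21.3, 16.7 and 20.8 CPM in BaPs, then 14.0, 13.6 and 12.3 in pre-basophils, 14.3, 12.8 and 12.7 in mature basophils of the BM and 11.0, 9.57 and 11.4 in those of the spleen. BaPs were above and spleen below all other libraries, while pre-basophils and BM mature lay together. Nip7 gave 0.57 ± 0.16 at the first step (adjusted p = 0.0503), 0.00 ± 0.17 at the second (adjusted p = 0.996) and 0.88 ± 0.16 between BaPs and spleen (adjusted p = 0.000403).

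Noc2l, which takes part in early 60S export and also binds histones, was at 44.9, 46.4 and 52.0 CPM across BaP libraries, 40.0, 31.4 and 29.4 across pre-basophil libraries, 25.8, 32.0 and 33.1 across BM mature libraries and 45.0, 44.2 and 54.3 in the spleen. The spleen libraries overlapped the BaP range and lay above both other groups. Noc2l was 1.57-fold higher in spleen than in BM mature (log2 0.65 ± 0.15, adjusted p = 0.0219), called in 20 of 23 alternatives. It overlaps Samd11 on the opposite strand over 20.9% of its exon bases, a gene with 106 counts over the 12 libraries. Of the remaining large-subunit genes, Nop16 was called at both steps (0.83 ± 0.20, adjusted p = 0.0283, and 0.72 ± 0.22, adjusted p = 0.0282). Nop2, an rRNA cytosine methyltransferase (0.87 ± 0.21, adjusted p = 0.0270), and Gnl3, the nucleolar GTPase nucleostemin (0.97 ± 0.22, adjusted p = 0.0201), were called at the first step. Wdr74 was called at the second (1.17 ± 0.25, adjusted p = 0.00314). Ebna1bp2 and Ftsj3, an rRNA methyltransferase, were called only between BaPs and spleen, at 0.64 ± 0.12 (adjusted p = 0.000673) and 1.10 ± 0.27 (adjusted p = 0.00337).

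Between the mature basophils of the 2 tissues few members differed. Ddx21, Polr1e and Noc2l were higher in spleen (8.57% of 35, against a background of 3.16% called higher in spleen), and Npm1 was lower (2.86%, against 4.67%). The median log2 value was 0.27, and every spleen library was above every BM mature library in 15 genes and below in 4, where 16.6% of all tested genes were above and 17.1% below. These counts moved with single libraries. No member was called without BM mature replicate 1, without BM mature replicate 2 or without spleen replicate 3, when 10, 11 and 14 had an unadjusted p under 0.05 in edgeR, and 9 were called without BaP replicate 3. B cell markers, as given above, were 182 to 325 CPM in the spleen libraries and 34.7 to 51.1 in the BM mature ones, and their part in these calls was not tested.

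Other genes of the same pathway were read against the 35. In a wider list of 136 ribosome biogenesis genes, 134 were tested, of which 12 were higher in BaPs than in pre-basophils (8.96%) and none was called lower (2 at an unadjusted p under 0.05, 0 by DESeq2 or limma-voom), with a median of 0.39. The numbers were 16 and 0, with a median of 0.35, when BaP replicate 3 was left out. Of all tested genes, 2.79% were called higher in BaPs at the first step, or 5.97% without that library. At the second step 32 were higher in pre-basophils (23.9%) and 3 lower, with a median of 0.32, where 16.3% of all tested genes were called higher. The 35 members thus had a larger share of calls at both steps than the wider pathway (51.4% and 40.0%), and this difference was not tested. Counted by process at the second step, 15 of 28 snoRNP assembly, RNase MRP and exosome genes were higher in pre-basophils (53.6%). The counts were 7 of 46 further small-subunit (15.2%), 9 of 47 large-subunit (19.1%) and 1 of 13 RNA polymerase I genes (7.69%). These last shares lay near or below the 16.3% of all tested genes.

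The 3 largest changes of the wider list at that step all belonged to the exosome, the nuclease that trims rRNA ends. Exosc8 was at 57.9, 38.0 and 44.0 CPM in pre-basophils and 12.4, 15.0 and 13.5 in BM mature basophils (log2 1.76 ± 0.20, adjusted p = 3.01e-05). Exosc6 (1.71 ± 0.31, adjusted p = 0.00119) and Mphosph6, an exosome cofactor (1.66 ± 0.34, adjusted p = 0.00248), followed. The 3 genes that were lower in pre-basophils were Ruvbl1, an ATPase of snoRNP assembly and several chromatin complexes (-0.81 ± 0.11, adjusted p = 8.79e-05), Nop53 (-0.54 ± 0.16, adjusted p = 0.0263) and Nsa2 (-0.34 ± 0.11, adjusted p = 0.0384), both of them large-subunit factors. Nop53 was lower in BaPs than at the end of the course, going from 127 ± 17.5 CPM in BaPs to 316 ± 79.6 in spleen mature basophils (-1.31 ± 0.17 for BaP against spleen, adjusted p = 1.79e-05, and -1.40 without BaP replicate 3).

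Functionally neighbouring groups had their calls spread otherwise over the steps, a difference that was not tested. Replication genes, of which 29 were tested, had 27 higher in pre-basophils than in BM mature basophils, with a median log2 value of 2.12. At the first step 3 of the 29 were higher in BaPs (median 0.48), and 22 were without BaP replicate 3 (median 0.64), so that their count at this step depended on that library while that of the 35 members, 18 and 19, did not. The ribosomal proteins, which are assembled with rRNA in the nucleolus, were counted in the same way. Of 79 cytosolic ribosomal protein genes, 19 were higher in BaPs than in pre-basophils and none was called lower, also by DESeq2, limma-voom or an unadjusted p under 0.05 (median 0.30), and without BaP replicate 3 the number was 39. At the second step 6 were higher and 16 lower in pre-basophils (median -0.13), a direction that turned to 18 higher and 4 lower (median 0.10) when libraries were scaled by their totals alone. Of 78 mitochondrial ribosomal protein genes, 4 were higher in BaPs and 1 was lower at the first step (median 0.18), or 10 and 1 without BaP replicate 3 (median 0.23). At the second step 45 of them were higher and 2 lower in pre-basophils (median 0.66). For comparison, 2.79% of all tested genes were called higher at the first step, or 5.97% without BaP replicate 3. At the second step 16.3% of all tested genes were called higher and 11.0% lower.

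**Figure D4:**
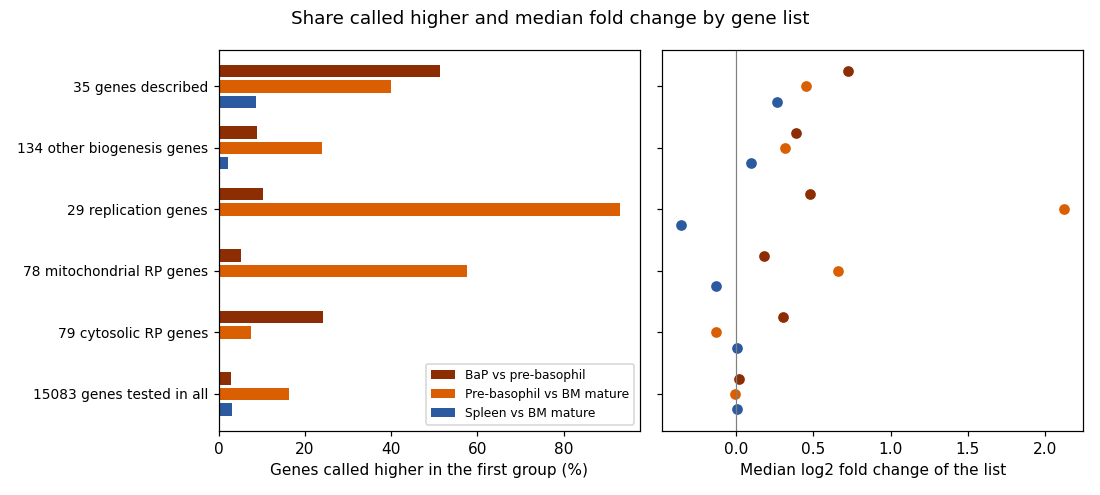
Share of genes called higher in the first group (left, percent of tested genes) and median log2 fold change (right) for the 35 genes, 4 other lists and all tested genes, with bars and points coloured by comparison. At the first step (dark brown) the 35 members have the highest share (51.4%) and median (0.73), and at the second (orange) the replication genes do (93.1%, 2.12). Without BaP replicate 3 the order of first-step shares turned, with 22 of 29 replication genes and 19 of 35 members called higher.

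Small nucleolar RNA host transcripts without a protein product were called for 2 of 12 tested genes at the first step, Gas5 (0.42 ± 0.11, adjusted p = 0.0331) and Snhg1 (0.67 ± 0.15, adjusted p = 0.0167), both higher in BaPs. At that step 2.79% of all tested genes were called higher in BaPs. Of the 12, 9 were higher in BaPs than in spleen mature basophils, as were 29.8% of all tested genes. None of the 12 was lower in BaPs in either comparison by edgeR, DESeq2, limma-voom or an unadjusted p under 0.05. Without BaP replicate 3 the counts against spleen were 7 higher and 1 lower, and Gas5 (0.38, adjusted p = 0.0258) and Snhg1 (0.54, adjusted p = 0.0191) were still called at the first step. At the second step 2 of the 12 were higher in pre-basophils and 1 lower, against 16.3% and 11.0% of all tested genes. The lower one was Gas5 (-0.48 ± 0.11, adjusted p = 0.00444), which was not called between BaPs and spleen (0.10 ± 0.11, adjusted p = 0.441). Gas5 and Snhg1 were singled out after their values were seen.

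Myc, the transcription factor most often linked to this pathway, had its highest group mean in the spleen. Of the 35 genes, 31 were highest in BaPs and 3 in the spleen. The summed RNA polymerase I genes had the same order of group means as Myc, namely spleen, BaP, BM mature and pre-basophil. In that sum BM mature and pre-basophil means were close (19.7 and 19.5 CPM), and none of the RNA polymerase I genes had this order singly. Polr1a and Polr1b were highest in BaPs, and Polr1e was highest in spleen but lowest in BM mature basophils. Whether Myc has a part in the levels of the 35 genes was not tested. Its CPM was 34.4, 44.6 and 44.1 in the BaP libraries, 15.7, 15.1 and 17.4 in those of pre-basophils, 22.0, 13.0 and 19.7 in BM mature libraries and 57.9, 48.0 and 66.5 in spleen libraries. The spleen libraries were above and the pre-basophil and BM mature libraries below the BaP range. Myc was 2.55-fold higher in BaPs than in pre-basophils (log2 1.35 ± 0.19, adjusted p = 0.00120), gave -0.17 ± 0.20 at the second step (adjusted p = 0.570) and was 3.17-fold higher in spleen than in BM mature basophils (1.66 ± 0.19, adjusted p = 0.000747). Against BaPs, spleen mature basophils were higher in Myc (-0.48 ± 0.18 for BaP minus spleen, adjusted p = 0.0306) and lower in 26 of the 35 members. Against BM mature basophils, 27 of the 35 member values were positive in spleen, with 3 called higher and 1 lower. Without BaP replicate 3 the Myc value was 1.29 at the first step (adjusted p = 0.000370) and -0.53 for BaP minus spleen (adjusted p = 0.0162). Of the 9 tested genes of the MYC and MAX network, 5 were lower in pre-basophils than in BM mature basophils (Max, Mxd1, Mxd4, Mnt and Mga) and 1 was higher (Mxd3). Of all tested genes, 11.0% were called lower and 16.3% higher at this step. The list holds Myc, its partner Max and other network genes together, so the count was not read as MYC activity.

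Changing the scaling moved all genes together. With library totals alone, the median log2 value of all tested genes went from 0.02 to 0.23 between BaPs and pre-basophils, with 79.6% of calls higher in BaPs in place of 39.4%, and from 0.00 to 0.22 at the second step, with 82.5% in place of 59.8%. Relative to that shift the 35 genes stayed above, with medians of 0.94 and 0.69 and 26 and 19 genes called higher, where 8.55% and 24.6% of all tested genes were called higher, and none of the 35 was called lower.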

How the data were processed

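The 35 genes, their roles and every gene list were chosen with earlier results of these data known, as were the comparisons and tests. Per the labels and the study's methods, the authors prepared cDNA from polyadenylated RNA of the sorted cells, amplified it by PCR (TAS-Seq chemistry), fragmented it and sequenced it by Illumina. They trimmed reads with Cutadapt 3.4 and mapped them with Bowtie2 2.4.2. The methods name GRCm38 transcripts, whereas the submitters' processing notes name GRCm39, and the table itself holds no coordinates. Strand use, the treatment of reads that match several genes and molecular identifiers are not given in the sources used here. The deposited table holds raw counts per gene, without normalization.

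Genes were filtered with filterByExpr and fitted in edgeR 4.0.16 (R 4.3.3) with TMM scaling, 1 coefficient per group, all 12 libraries and no replicate block, and tested with the quasi-likelihood F test. SE is the log2 fold change divided by the root of F. P-values were adjusted over the 15083 tested genes (Benjamini-Hochberg), and they measure the spread between pools of animals sorted for 1 experiment. A count of 0 allows up to 3 counts, which is 0.290 to 0.955 CPM depending on the library, and such limits cover counting error only. Replicate libraries differed by more than sampling noise (chi-square per degree of freedom 4.16 or more). The study's package TCC was replaced by edgeR, and its scheme was rebuilt as an alternative. Scripts were tested on simulated data.

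Exon lengths, overlaps and gene positions are from GENCODE M21 on GRCm38, an annotation that may differ from that used for counting. Shared sequence is the share of 60-base transcript windows that occur in another gene. Values in every library were given by a rule, for each role the most abundant member and those with the largest and smallest change at the second step, and up to 6 members with the smallest adjusted p among those called at the first step or between tissues. Of the wider list the rule took the 3 largest and 3 smallest called changes at the second step, and Myc. Alternatives were other scalings, filters, tests (DESeq2 1.42.0, limma 3.58.1), fits and single libraries left out. A comparison of member protein sequences was planned and was not analysed here.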

Additional observations from a re-analysis of the deposited data

How the results depend on the processing

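The member counts changed with scaling and test as well as with single libraries. With library size alone they went from 18 to 26 between BaPs and pre-basophils and from 14 to 19 between pre-basophils and BM mature. In the same 2 comparisons DESeq2 gave 19 and 12 members, and limma-voom 22 and 13. Leaving out 1 library gave 10 to 20 members called between BaPs and pre-basophils, 11 to 18 between pre-basophils and BM mature, 0 to 9 between spleen and BM mature, 24 to 27 between BaPs and spleen, and 30 to 31 among the 4 groups. For all genes the count between BaPs and pre-basophils was 1068, and became 1620 with library size alone, 2091 with no filter, 375 with only the groups compared and 382 to 1831 without 1 library. Between spleen and BM mature it was 1181, and became 1796 with no filter, 2340 with only the groups compared and 241 to 2653 without 1 library. The cause was not tested.

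The replicate numbers are shared across groups in the labels, but nothing says that a number marks a shared batch. Deviations of same-numbered libraries correlated at 0 to 0.262 (18 pairs), and each of the 12 libraries correlated best with its own number. With the replicate block 19, 16, 4, 27 (26 higher and Polr1e lower) and 30 members were called in the comparisons BaP against pre-basophil, pre-basophil against BM mature, spleen against BM mature, BaP against spleen, and among all groups. With the block and without BaP replicate 3, a setting chosen after seeing the data, 2060 genes were called between BaPs and pre-basophils, and 3410 genes and 11 members between spleen and BM mature.

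Signs turned under at least 1 alternative for 1, 9, 4 and 5 of the 35 genes between BaPs and pre-basophils, pre-basophils and BM mature, spleen and BM mature, and BaPs and spleen, none of them called. Of the values given above, these turned between pre-basophils and BM mature. Ncl was -0.0125 with the upper quartile. Nip7 was -0.0194 with at least 10 CPM in 3 libraries, -0.0206 with DESeq2, -0.02 with its size factors, -0.0013 with limma-voom, -0.0134 with only the groups compared and -0.05 with the upper quartile. Under the DEGES scaling and library size alone Nop14 was 0.0528 and 0.186, Npm1 0.0389 and 0.1795, Polr1a 3e-04 and 0.1328, and with library size alone Polr1b was 0.1303 and Myc 0.059. Without 1 library, Ncl ranged from -0.0076 to 0.1182, Nip7 from -0.0325 to 0.0613, Nop14 from -0.1169 to 0.0304, Polr1a from -0.2739 to 0.0165, Polr1b from -0.2116 to 0.1194, Bop1 from -0.0567 to 0.3131, Noc2l from -0.0037 to 0.227 and Polr1e from -0.0678 to 0.156. Elsewhere Rrp9 was 0.0469 between BaPs and pre-basophils with library size alone. Between BaPs and spleen Rrp1 was 0.0922 and 0.2637 under those 2 scalings, 0.015 with the block and without BaP replicate 3, and -0.129 to 0.0631 without 1 library, and Bop1 -0.0088 to 0.214 without 1 library. For low genes such as Utp20 and Polr1b depth limits the precision.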
